A study of Mus musculus with 12 samples.

Results

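The regions described here were 406 of the 3668 BRD3 regions of untreated RAW264.7 cells (11.1%). Each overlapped by at least 1 bp a BRD3 region of cells given RANKL and a BRD3 region of cells given RANKL together with I-BET, and overlapped no BRD3 region of cells given I-BET alone. They were thus chosen by the presence and absence of BRD3 calls in these 4 lists, so that pattern is a description and no result rests on it. RAW264.7 is an established mouse line of the monocyte and macrophage lineage, used as an osteoclast precursor. Untreated cells were compared with cells kept for 4 h with RANKL at 50 ng/ml, with I-BET at 500 nM, or with both agents, and all cells were cross-linked with formaldehyde before chromatin immunoprecipitation and sequencing (ChIP-seq). The labels name this line, and also give bone marrow as the source. Each antibody and treatment had 1 library, so no difference between treatments has a replicate error, and none was tested. The peak lists hold no read counts, and library depth is unknown.

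BRD2 and BRD3 belong to the BET family, whose paired bromodomains bind acetylated lysines on histones and bring elongation and chromatin factors to active promoters and enhancers. I-BET occupies the acetyl-lysine pocket of the bromodomains and can displace BET proteins from chromatin. RANKL is the cytokine that, through its receptor RANK and NF-κB, starts the formation of osteoclasts from monocyte precursors. In the macrophage lineage BET proteins are known for their part in inducible and lineage genes. The series asks how BET proteins and MYC take part in the early steps of osteoclast development.

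The line was checked against 10 macrophage genes fixed as markers, among them Spi1, Csf1r and Cd68. A BRD3 region lay within 1 kb of an end of 6 of the 10 in untreated cells, of 8 with RANKL, of 1 with I-BET and of 0 with both agents. None of the 16 markers of T cells, B cells, erythroid cells, osteoblasts, epithelium or endothelium had a BRD3 region in any of the 4 lists. Over all protein-coding genes, 3065 of 21887 had a BRD3 region at an end in untreated cells. With 16 markers of other lineages, a count of 0 cannot be told apart from that share. The share over all genes is not given for the other lists, which differ in length. The marker counts are therefore not compared between treatments. A longer list of 35 macrophage identity genes had 13, 17, 2 and 4 with a BRD3 region, in the same order of treatments. None of the 10 macrophage markers had a region of the set described here. Among all 3065 bound genes the share was 12.1%, so with 6 bound markers a count of 0 cannot be told apart from it.

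The promoters printed first are those of 4 genes chosen as examples of the gene groups described further on. Each line gives the 200 bases before the transcription start, 5′ to 3′ on the gene's own strand, as RefSeq holds them for GRCm38. Cmtr2, which encodes an mRNA cap methyltransferase, lay under the highest-scoring region of the set. H2bc22 is a replication-dependent histone gene, Hspe1 encodes the mitochondrial co-chaperonin and shares its region with the chaperonin gene Hspd1, and Tfrc encodes the transferrin receptor. Capitals mark matches to CCGGAA (the core of ETS factors), GGGCGG (the GC box of SP and KLF factors), CCAAT (NF-Y) or the heat shock factor motif, on either strand.
Cmtr2 (chr8:110217760-110217959, plus strand): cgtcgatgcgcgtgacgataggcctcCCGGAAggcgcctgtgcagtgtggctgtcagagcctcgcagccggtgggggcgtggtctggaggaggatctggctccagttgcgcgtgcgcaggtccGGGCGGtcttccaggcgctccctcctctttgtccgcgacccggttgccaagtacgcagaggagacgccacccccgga
H2bc22 (chr13:21787288-21787487, plus strand): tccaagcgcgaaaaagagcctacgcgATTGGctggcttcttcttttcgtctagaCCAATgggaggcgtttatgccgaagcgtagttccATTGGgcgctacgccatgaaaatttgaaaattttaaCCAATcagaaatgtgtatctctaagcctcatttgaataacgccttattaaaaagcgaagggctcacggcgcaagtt
Hspe1 (chr1:55087948-55088147, plus strand): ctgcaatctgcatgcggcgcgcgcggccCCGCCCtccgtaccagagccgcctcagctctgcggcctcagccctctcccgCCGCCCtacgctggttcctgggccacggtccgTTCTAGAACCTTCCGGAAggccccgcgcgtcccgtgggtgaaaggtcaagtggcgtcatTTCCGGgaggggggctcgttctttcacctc
Tfrc (chr16:32608696-32608895, plus strand): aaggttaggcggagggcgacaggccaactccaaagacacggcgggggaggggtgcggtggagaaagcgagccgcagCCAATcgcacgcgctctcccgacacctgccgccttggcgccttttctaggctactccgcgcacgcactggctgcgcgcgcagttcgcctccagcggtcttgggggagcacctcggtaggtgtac
The H2bc22 stretch held 4 CCAAT matches, beginning 174, 146, 112 and 76 bases before the start. The Hspe1 stretch held 2 heat shock factor matches, beginning 89 and 84 bases before the start. They overlap each other and the ETS matches at 79 and 77 bases. The Cmtr2 stretch held an ETS match 174 bases and a GC box 77 bases before the start, and Tfrc a CCAAT match at 124 bases. A match is a run of letters and not evidence that the factor binds there.

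A second group of 4 shows the promoters of a translation factor, a splicing factor and the macrophage and immediate-early genes of the set. Eef2 encodes the elongation factor that moves the ribosome along the mRNA, and Lsm8 a protein of the U6 small nuclear ribonucleoprotein. Cebpa encodes a transcription factor of myeloid cells, and Junb an AP-1 subunit. Capitals here mark GCGCATGC (NRF1), CACGTG (the E-box of MYC and USF factors), TATAAA (the TATA box), GGGCGG or CCAAT.
Eef2 (chr10:81176431-81176630, plus strand): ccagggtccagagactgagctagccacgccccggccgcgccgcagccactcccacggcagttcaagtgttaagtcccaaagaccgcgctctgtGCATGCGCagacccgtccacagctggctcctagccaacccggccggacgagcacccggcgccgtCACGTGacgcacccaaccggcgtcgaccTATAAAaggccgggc
Lsm8 (chr6:18848435-18848634, plus strand): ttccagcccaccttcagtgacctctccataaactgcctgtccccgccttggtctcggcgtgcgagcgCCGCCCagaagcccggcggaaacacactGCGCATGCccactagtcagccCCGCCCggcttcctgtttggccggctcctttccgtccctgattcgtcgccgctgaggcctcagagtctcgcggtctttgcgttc
Cebpa (chr7:35119093-35119292, plus strand): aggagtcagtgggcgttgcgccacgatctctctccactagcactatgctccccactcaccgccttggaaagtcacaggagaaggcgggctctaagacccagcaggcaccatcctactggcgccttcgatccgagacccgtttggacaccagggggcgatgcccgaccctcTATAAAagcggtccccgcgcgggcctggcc
Junb (chr8:84978749-84978948, minus strand): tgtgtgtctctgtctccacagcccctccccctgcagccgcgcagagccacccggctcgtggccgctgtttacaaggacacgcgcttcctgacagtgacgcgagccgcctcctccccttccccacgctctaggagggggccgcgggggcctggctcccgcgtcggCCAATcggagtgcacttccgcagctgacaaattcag
The Eef2 stretch held an NRF1 match 107 bases and an E-box 43 bases before the start. Lsm8 held an NRF1 match 105 bases before the start, between GC boxes at 133 and 84 bases. Cebpa held a TATA match that began 30 bases before the start, and Junb a CCAAT match at 36 bases.

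Absence from the I-BET list was the most frequent of the 4 single absences as the lists were deposited. Of 2133 untreated regions that were also called with RANKL and with both agents, 406 had no I-BET region, a share of 19.0% (95% exact interval 17.4% to 20.8%; all intervals are Clopper-Pearson and cover counting error only). Of 1799 regions called in the lists other than that of both agents, 72 were missing there (4.00%, 3.14% to 5.01%). The RANKL list lacked 135 of 1862 (7.25%), and the untreated list lacked 189 of 1916 (9.86%). The background over the same regions is the same 19% that the rule fixes, and nothing is read from it.

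The order of the 4 shares was different with lists of equal length. The I-BET list was the shortest, with 2232 BRD3 regions against 3668 untreated, 3840 with RANKL and 2842 with both agents. When each list was cut by score to 2232 regions, I-BET lacked 133 of 817 (16.3%, 13.8% to 19.0%) and both agents lacked 127 of 811 (15.7%, 13.2% to 18.3%), shares whose intervals overlap. RANKL then lacked 287 of 971 (29.6%) and untreated cells 291 of 974 (29.9%). At this length absence from the I-BET list was not the most frequent. The cut took regions only from the other lists, so it favoured this change of order, and nothing is read from it. In the upper 50% of each list by score, I-BET lacked 185 of 454 (40.7%), against 113 of 382 (29.6%) for both agents. RANKL lacked 92 of 361 (25.5%) there and untreated cells 121 of 390 (31.0%). With this cut, which leaves the lists unequal in length, absence from the I-BET list was the most frequent. All 133 regions of the equal-length set belonged to the 406. The cut had the length of the I-BET list and left it whole, so that outcome was fixed in advance. In the upper 50% by score, where the I-BET list was cut too, 68 of the 185 belonged to the 406.

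A region that was not listed may still have had a peak. Each listed region joins peaks of 3 sets, and the peak names run higher than the lists: to at least 2928 in each set under I-BET, where 2232 regions were listed. The 406 regions can thus include places called in fewer than 3 sets of the I-BET library. How many did was not tested.

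**Figure D1:**
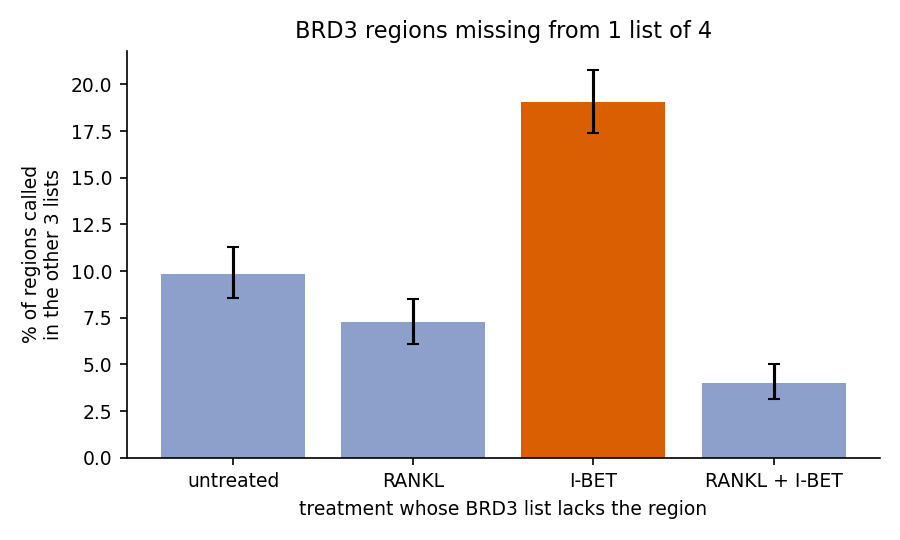
BRD3 regions missing from 1 list of 4 as deposited: the y axis gives the percentage of regions called in the other 3 lists that the named treatment lacks, and bars carry 95% exact intervals (counting error only, 1 library per treatment). I-BET lacks 19.0% and both agents 4.00%. With lists cut to the length of the I-BET list, which left that list whole, the values are 16.3% and 15.7%. RANKL (29.6%) and untreated cells (29.9%) then lie higher. In the upper 50% of each list by score, I-BET lacks 40.7%, the highest of the 4.

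The nearest I-BET region was usually far away. The distance from a member to the nearest I-BET region had a median of 130756 bp, with quartiles of 52693 and 438217 bp, and a minimum of 1376 bp. The closest members, just inside the rule, were a region at chr2:122377338-122377822 near Shf (1376 bp), 1 at Zfp27 (1652 bp), 1 at the shared end of Iars2 and Bpnt1 (2153 bp), the Eef2 region (2813 bp) and the Irf2bpl region (3147 bp). Just outside it, the non-members with the smallest overlap shared 333 bp at Ap1s1, 337 bp near Tnfaip3, 360 bp at Daam1, 360 bp near Dcaf12 and 361 bp at Txndc15 with an I-BET region. Among the 2133 regions called in the other 3 lists, the members thus lay at least 1376 bp from an I-BET region and the non-members overlapped one by at least 333 bp.

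The regions were narrower than those called in all 4 treatments, most clearly with both agents. In untreated cells the median width was 584.5 bp (quartiles 462 and 907 bp, range 308 to 3592 bp), against 670 bp for the 1727 regions of all 4 treatments. With RANKL the medians were 550 and 680 bp, and with both agents 474 and 618 bp. Every member had exactly 1 region in the RANKL list and 1 in the list of both agents. The widths come from lists that the rule used and are a description.

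The ratio of the width with both agents to the untreated width had a median of 0.846 in the set and 0.95 in the regions of all 4 treatments. With RANKL alone, the ratio had a median of 0.980 in the set and 1.02 in those regions. With both agents 111 of the 406 regions (27.3%) were wider than in untreated cells, against 705 of 1727 (40.8%). Wide regions differed most: of 88 members over 1000 bp, 60 (68.2%, 57.4% to 77.7%) kept under 50% of their width with both agents, against 159 of 376 (42.3%, 37.2% to 47.5%) of the regions of all 4 treatments. The median of those 88 was 1349.5 bp untreated, 953 bp with RANKL and 506 bp with both agents.

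**Figure D2:**
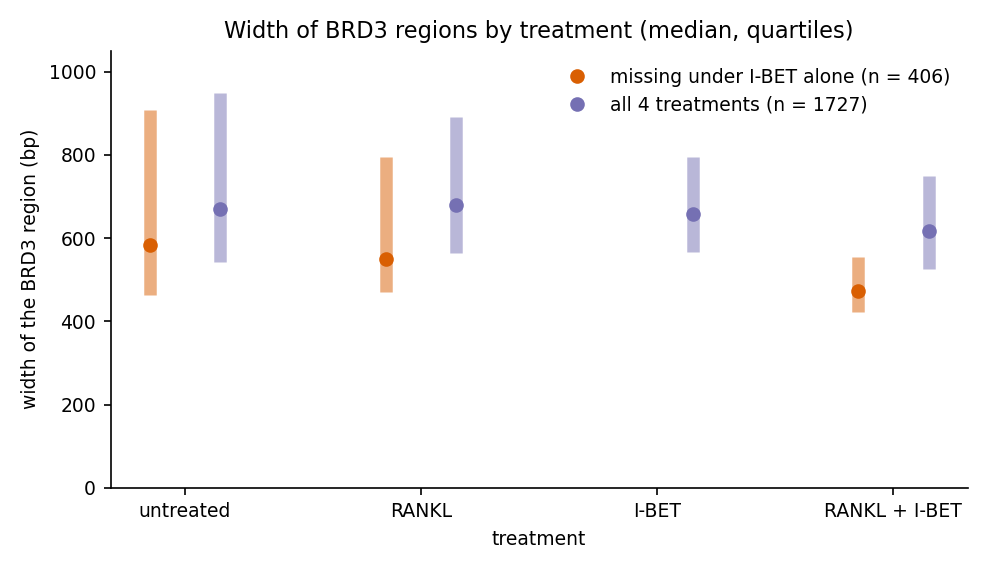
Width of BRD3 regions by treatment in bp: points are medians and bars run between the quartiles, for the 406 regions missing under I-BET alone and the 1727 called in all 4 treatments, each from 1 library. The set has no value under I-BET by the rule, and its median with both agents (474 bp) lies below that of the other regions (618 bp).

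The narrowest regions were most often without an I-BET call, and the shares by score were close to each other. The 2133 regions were divided into quartiles by untreated width, and 30.7% (26.8% to 34.8%) of the narrowest (308 to 526 bp) lacked an I-BET region, against 13.6%, 13.7% and 18.0% in the wider quartiles. By width with both agents the shares were 45.2%, 15.9%, 5.81% and 9.04%, from the narrowest to the widest. By untreated score they were 20.6%, 20.2%, 16.2% and 19.2%. The score is the authors' own value for a region, used here only to rank regions within a list. The narrow class was above the wider ones at gene ends (33.1% of 260 regions up to 500 bp against 13.5% of 1033 between 500 and 1000 bp) and in gene bodies (44.4% of 81 against 9.80% of 153). Between genes the shares were 35.3% of 68 and 24.3% of 74, with overlapping intervals.

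**Figure D3:**
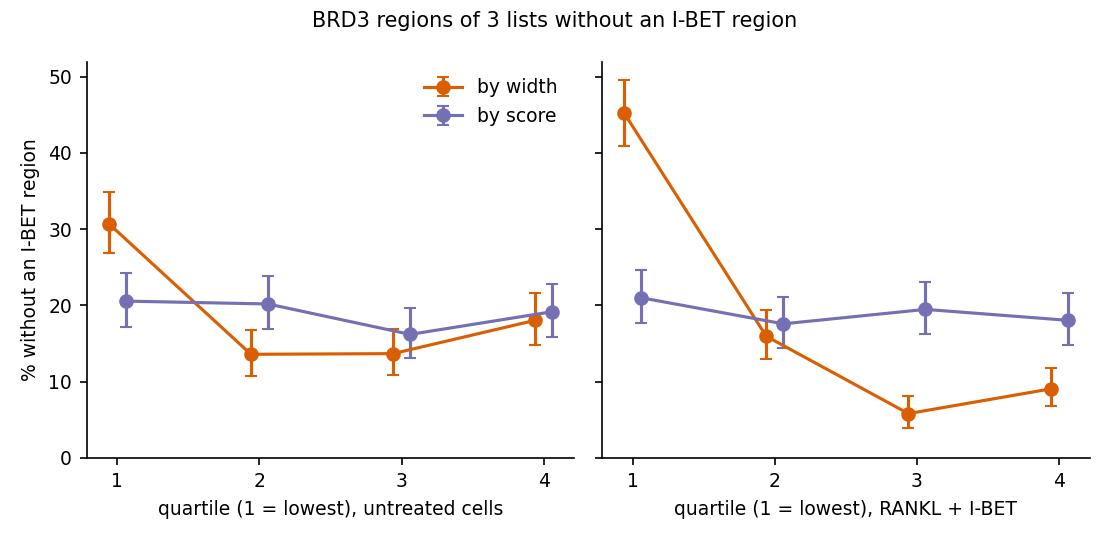
Percentage of the 2133 regions called in untreated, RANKL and RANKL plus I-BET lists that lack an I-BET region (y axis), by quartile of width or score (x axis) in untreated cells (left) and with both agents (right), with 95% exact intervals (counting error only). The narrowest quartile stands highest in both panels (30.7% and 45.2%), and the quartiles of score lie between 16.2% and 21.0%.

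The scores placed the members in the middle of each list. Their median score was 75 untreated, 113 with RANKL and 141.5 with both agents, and their median percentile within each list was 50.4, 49.6 and 51.1. In untreated cells 108 members (26.6%) lay in the highest quartile of the list and 99 (24.4%) in the lowest. Scores of different lists are not on a common scale and are not compared.

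The highest score in untreated cells, 285, belonged to the region at the Cmtr2 start, chr8:110217599-110218102, where the promoter printed above lies. It was 504 bp wide untreated, 485 bp with RANKL and 448 bp with both agents, and its percentile was 99.8, 97.2 and 21.2. The percentile with both agents was thus far below that in the other lists. The region of H2ac22 and H2bc22 followed with 263. Alg1, which encodes a mannosyltransferase of N-glycan synthesis, was high in all 3 lists, at percentiles of 98.0, 99.7 and 98.1.

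Among the 10 highest scores, between 201 and 285, 7 lay in gene bodies and 3 at gene ends, and 6 covered a listed promoter. The others included Tbkbp1, whose product binds the kinase TBK1, Txnrd1, which encodes cytosolic thioredoxin reductase, and an intragenic region of Arhgef7. The 10 widest regions measured 2229 to 3592 bp untreated and 329 to 1388 bp with both agents. All 10 were therefore narrower with both agents, an outcome that picking the widest untreated regions favours. Of regions over 2000 bp untreated, 12 of 13 members kept under 50% of their width with both agents. Among regions of all 4 treatments, 44 of 61 did. A BRD2 region lay over 5 of the 10, and the share for other regions of like width was not computed.

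Arhgdib had a region of 2859 bp untreated, 3034 bp with RANKL and 329 bp with both agents. The region near Zfp36l2, which encodes an mRNA decay factor, measured 2771, 2121 and 393 bp in the same order. Bhlhe41, which encodes a circadian repressor, had 2435, 430 and 463 bp. In Bhlhe41 the narrow region was present with RANKL alone, while Arhgdib and Zfp36l2 stayed wide with RANKL.

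Most members lay at gene ends. The midpoint of 289 (71.2%, 66.5% to 75.5%) was at most 1 kb from an end of a protein-coding gene, against 66.3% of all untreated BRD3 regions and 77.5% of those called in all 4 treatments. A further 64 (15.8%; 19.3% of all) lay in gene bodies and 53 (13.1%; 14.4% of all) between genes. The regions called in untreated and RANKL cells only, the next most like set with 561 members, had 41.0% at gene ends and 32.1% between genes. These differences between sets were not tested, as the sets share libraries and each rests on 1 library per treatment.

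Counted by promoters, 236 members (58.1%; 59.1% of all untreated BRD3 regions) overlapped one of the RefSeq windows from 250 bases before to 50 bases after a start. The midpoints of these regions lay at a median of 27.5 bases before the start, with quartiles from 114 before to 57.5 after. Of the members classed in gene bodies, 14 covered such a window away from the ends of the gene record. The Cmtr2 and Txnrd1 regions are among them.

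The members touched an end of 370 protein-coding genes, 1.69% of the 21887 genes used and 12.1% of the 3065 with an untreated BRD3 region. At 368 of the 370, no other BRD3 region was called at the gene with I-BET. The exceptions were Ndufb6, a subunit of respiratory complex I, and Eef2. This count largely follows from the rule, as every member lay at least 1376 bp from an I-BET region. Other bound genes were not counted this way. A single member touched 2 or more genes in 68 cases.

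Replication-dependent histone genes, whose products package newly made DNA, had 11 of 49 bound genes in the set (22.4%, 11.8% to 36.6%; 12.1% of all bound genes). The 11 genes shared 6 regions, all on chromosome 13: H2bc14, H2ac22 with H2bc22, H4c18 with H2ac24 and H4bc24, H4c8, H2ac10 with H3c8, and H2ac6 with H2bc4. The 6 regions were 1011 to 3592 bp wide untreated, 1228 to 2548 bp with RANKL and 435 to 1001 bp with both agents. The widths with both agents lay below every untreated width. The widest, chr13:21831581-21835172, went from 3592 bp untreated to 2548 bp with RANKL and 814 bp with both agents. None of the 6 overlapped a BRD2 region in any list, whereas 82 of all 406 members (20.2%) did. With only 6 regions, this lack of BRD2 cannot be told apart from that share. Histone genes are near-identical copies, and the sources used here do not say how reads shared between copies were placed.

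In the MYC network, 6 of 19 bound genes had a member (31.6%, 12.6% to 56.6%), in 5 regions. They were Fbl (the nucleolar methyltransferase fibrillarin), Hspd1 and Hspe1 (mitochondrial chaperonins), Srm (spermidine synthase), Tfrc and Mxd3 (a partner of MAX that opposes MYC). The Srm region was 1245 bp wide untreated, 1096 bp with RANKL and 454 bp with both agents. The shared region of Hspd1 and Hspe1, whose promoter is printed above, measured 1094, 869 and 750 bp. Fbl had a narrow region of 495, 550 and 447 bp. Tfrc measured 824, 490 and 528 bp. Mxd3 alone of the 5 was wider with both agents than untreated, at 504, 552 and 583 bp.

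Aminoacyl-tRNA synthetases, which load amino acids on tRNAs, had 4 of 14 bound genes (28.6%, 8.39% to 58.1%): Cars2, Iars2, Rars2 and Sars2. All 4 are mitochondrial enzymes, which was noticed after the values were seen. The Rars2 region is shared with Orc3 (origin recognition) and the Sars2 region with Mrps12 (mitochondrial ribosome). Other machinery lists lay near the background. DNA replication and cell cycle genes had 4 of 22 (18.2%; Orc3, Pola1, Pold1, Rpa1), nucleolar genes 4 of 31 (12.9%; Exosc4, Exosc7, Fbl, Utp15), translation factors 3 of 23 (13.0%; Eef1g, Eef2, Eif3j1) and oxidative phosphorylation genes 4 of 37 (10.8%). Splicing genes had 4 of 39 (10.3%; Hnrnpm, Lsm4, Lsm8, Prpf40b). The Eef2 region was 556 bp wide untreated, 675 bp with RANKL and 400 bp with both agents, and that of Lsm8 553, 487 and 374 bp. Both were narrowest with both agents. Cytosolic ribosomal protein genes had 3 of 33 (9.09%), namely Rps15, Rps23 and Rps29. Each of these 3 regions had a BRD2 region in at least 1 list, against 20.2% of all 406 members. That rests on 3 regions and was not tested. The intervals of all lists but the MYC network included 12.1%, and that of the MYC network, from 12.6%, counts Hspd1 and Hspe1 separately although they share 1 region. A shared region counts once for each of its genes, so no list is set apart from the background here.

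The macrophage and immediate-early lists had 1 gene each in the set, shares that cannot be told apart from the 12.1% of all bound genes. Of 13 bound macrophage identity genes, 1 had a member (7.69%, 0.195% to 36.0%), Cebpa. Of the 13, 7 had a region of the untreated and RANKL pattern and 2 a region called in all 4 treatments. Counted by region and not by gene, these patterns held 15.3% and 47.1% of all untreated BRD3 regions. Shares over all bound genes are not given here, and no difference was tested. The Cebpa region, chr7:35117735-35119850, measured 2116 bp untreated, 590 bp with RANKL and 566 bp with both agents. It was thus as narrow with RANKL alone as with both agents. Junb was the only one of 7 bound immediate-early genes (14.3%, 0.361% to 57.9%), with 2356, 761 and 1388 bp.

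The osteoclast list had 0 of 5 bound genes in the set (up to 52.2% by the exact interval), the RANK and NF-κB list 0 of 8 (up to 36.9%), and the inflammatory and interferon list 0 of 5 (up to 52.2%). The BET and elongation list had 0 of 7 (up to 41.0%) and the Rab GTPases 0 of 11 (up to 28.5%). With so few bound genes, a share near the background was not distinguishable from none.

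**Figure D4:**
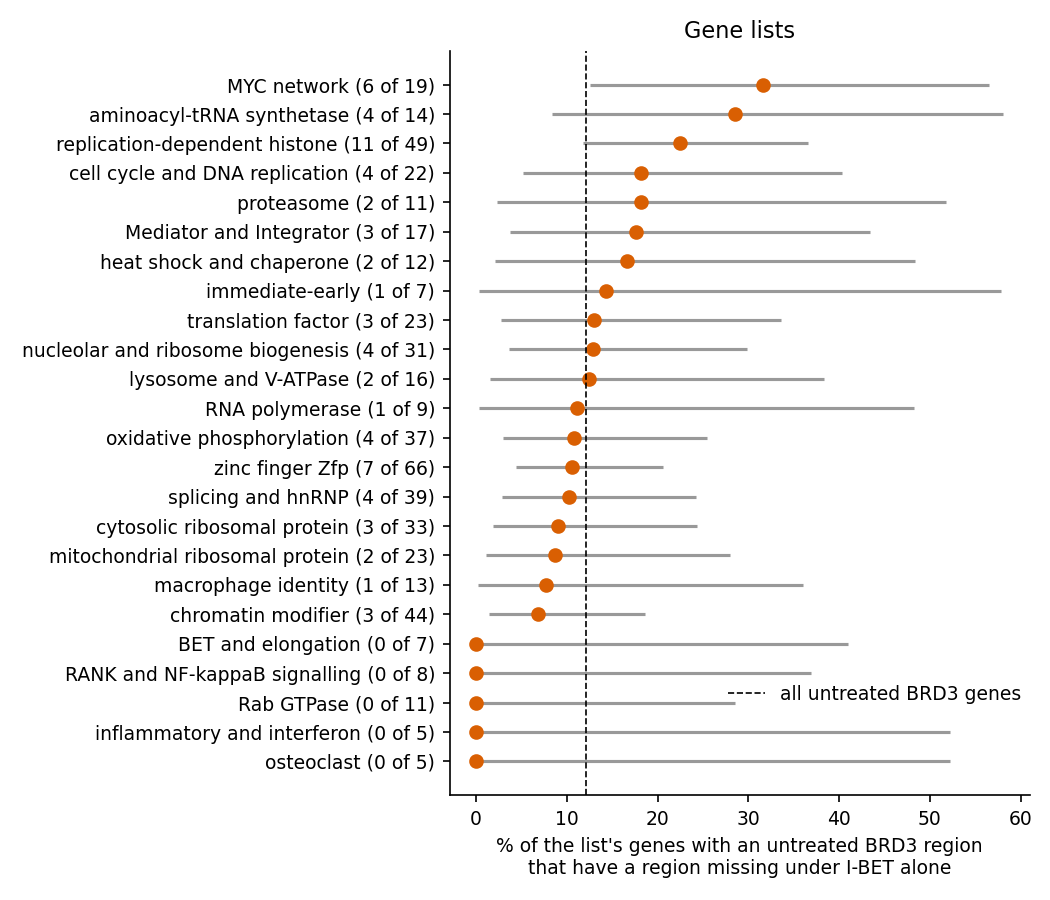
Percentage of each list's genes with an untreated BRD3 region at an end that have a region missing under I-BET alone (x axis), with 95% exact intervals (counting error only); counts stand beside the names, and the dashed line marks all 3065 bound genes. The MYC network (31.6%), aminoacyl-tRNA synthetases (28.6%) and histone genes (22.4%) have the highest shares, other lists lie on either side of the line at 12.1%, and 5 lists lie at 0.

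BRD2, which the rule did not use, was called at few members. With RANKL, 55 of the 406 regions (13.5%, 10.4% to 17.3%) overlapped a BRD2 region, against 20.1% of all untreated BRD3 regions, 16.7% of those called in all 4 treatments and 34.9% (31.0% to 39.0%) of those called in untreated and RANKL cells only. The interval of the set lay below the last of these and overlapped that of the regions called in all 4 treatments. In untreated cells the count was 18 (4.43%; 8.53% of all), with I-BET 32 (7.88%; 13.1% of all) and with both agents 7 (1.72%; 3.6% of all). No BRD2 region of any list lay over 324 members, and 82 (20.2%; 28.4% of all) had at least 1. The set was narrower than the other sets, and a narrow region has less room for an overlap. The part of width in these shares was not tested.

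At 32 members, then, BRD2 was called with I-BET although BRD3 was not. They included the shared region of Hspd1 and Hspe1, the Txnrd1 region, the Arhgdib and Zfp36l2 regions, and those of Hnrnpm, Psmd5 (a proteasome assembly chaperone) and Lamtor2 (a lysosomal scaffold of mTORC1 signalling). The BRD2 library with I-BET held 1067 regions, against 578 in untreated cells. Of the 32, 16 had BRD2 in the I-BET list alone, and the like count for other sets is not given here. A BRD2 region with I-BET lay over 7.88% of the set. That share was 9.67% for the regions called in all 4 treatments and 13.1% for all untreated BRD3 regions. A BRD2 region in all 4 lists lay over 2 members, of which one, chr11:109472503-109474043, is at Slc16a6 and Arsg.

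**Figure D5:**
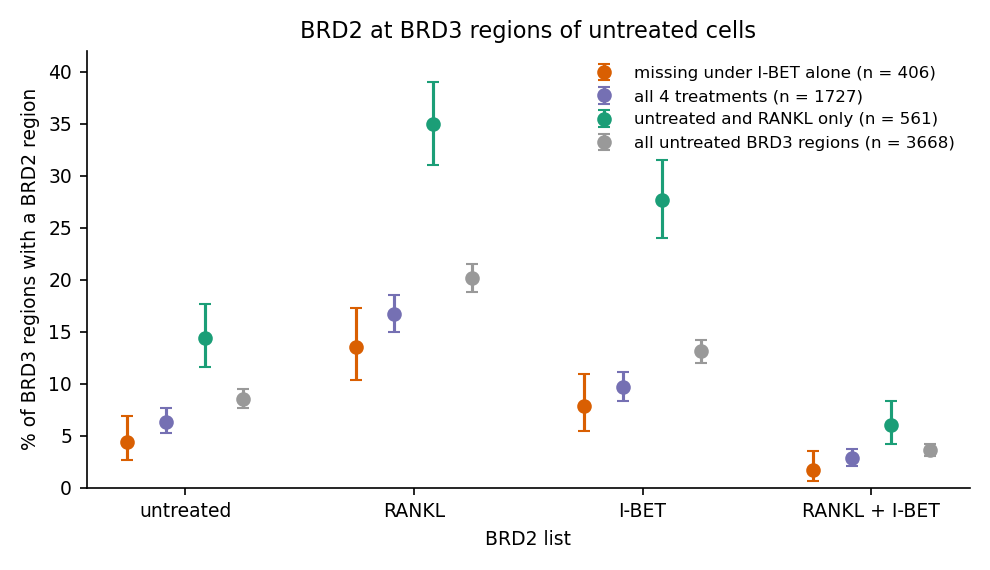
Percentage of BRD3 regions of untreated cells that overlap a BRD2 region (y axis) in each of 4 BRD2 lists (x axis), with 95% exact intervals (counting error only, 1 library each). The set (406 regions) has 13.5% with RANKL, below the regions called in untreated and RANKL cells only (34.9%) and beside those called in all 4 treatments (16.7%).

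The promoters under the members were CpG-rich. The 236 regions covered 304 windows of 271 genes, with a median GC content of 63% and a median observed over expected CpG ratio of 0.847. That ratio exceeded 0.6 in 91.4% of the windows, against 93.2% for the regions of all 4 treatments and 47.6% of the 21263 windows in the table. The windows of 1 gene can overlap and share sequence.

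Motif letters were counted on both strands of each 300-base window. The NRF1 core GCGCATGC was in 14.5% of the windows (10.7% to 18.9%), against 23.1% (21.1% to 25.3%) for regions of all 4 treatments, 17.3% for all untreated regions and 3.52% of all promoters. The letters TGACGT, found in sites of CREB and ATF factors, were in 17.1% (13.0% to 21.8%), against 11.8% (10.3% to 13.5%), 12.9% and 8.49%. The ETS core CCGGAA was in 37.8%, 31.0%, 32.5% and 18.7% in the same order, and the E-box CACGTG in 14.5%, 10.9%, 11.4% and 7.84%. The GC box GGGCGG was in 67.1%, 72.8%, 72.2% and 46.2%, and CCAAT in 39.1%, 34.1%, 34.4% and 38.2%. Matches of different motifs may overlap, as they do at Hspe1. TATAAA was in 7.89%, 4.97%, 5.80% and 12.6%. The PU.1 core GAGGAA was in 22% of windows, near the 23.1% of all untreated regions and below the 27.4% of all promoters. AP-1 letters, TGANTCA, were in 1.64%, 2.86%, 2.99% and 6.99% in the same order, so the set lay near the other BRD3-bound promoters. In the regions called in untreated and RANKL cells only, the NRF1 core was in 7.20% of windows, TGACGT in 9.20%, TATAAA in 9.20% and the PU.1 core in 31.6%. For the NRF1 core the set thus lay between those regions and the regions of all 4 treatments. With 1 window per gene, the NRF1 core was in 14.8% and 23.4% for the set and the regions of all 4 treatments. Of 16 motifs searched, no difference was tested.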

How the data were processed

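BRD2 and BRD3 ChIP-seq of RAW264.7 cells gave 8 peak lists, 1 library each; the 4 input libraries have no list and were not used. Per the submitters' processing notes, the tools named were FastQC, Bowtie2 2.3.4.1 and MACS2 2.1.1.20160309 and the build mm10/GRCm38; settings: not given in the sources used here. Reads were single-end 50 bp, per the labels' protocols. In the deposited lists, each region has a score that is the authors' own value, and joins peaks of 3 sets numbered 3, 5 and 7, whose meaning the sources used here do not give. Depth is unknown. Starts were read as counted from 0 and are given counted from 1.

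From these lists, overlaps of at least 1 bp, widths, score ranks and exact 95% intervals were computed in Python 3.11.15 with pandas 2.3.3 and scipy 1.17.1, and checked on simulated data. Genes and promoter windows came from RefSeq tables for GRCm38.p6; the gene table has no strand, so both ends of a gene count. All promoter sequences printed were found in that table. The members, gene lists, motifs and the naming rule were chosen with earlier results of these data known. The rule named the 10 highest-scoring and 10 widest members, members of the regulatory, MYC, heat shock, nucleolar, histone and ribosomal protein lists, the 5 nearest regions on each side of the rule, and regions with BRD2; the other genes were chosen after their values were seen. Alternatives varied the overlap, distance, score threshold, list length, joined peaks, anchoring list and windows.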

Additional observations from a re-analysis of the deposited data

How the results depend on the processing

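Of the alternatives, 5 of 7 left the number of regions within 1.5 times of 406, between 343 and 406. Of these, the 1 kb distance could not move it, as the nearest I-BET region lay 1376 bp away, and anchoring on another list had little room to, as every member had 1 region in each. Both alternatives that shortened the lists moved it. The upper 50% of each list by score gave 185 regions and lists cut to equal length gave 133. The share with a BRD2 region under RANKL moved to 9.73% in the upper 50% by score. The share at gene ends moved to 65.3% with a window of 500 bp and to 79.8% with 5 kb. The median untreated width moved to 537 bp when 50% of the region had to be covered. The other alternatives that were run kept each of these shares and the median width within its spread. With 50% coverage required, 327 of 343 regions belonged to the 406. No paired analysis was possible because each antibody and treatment has 1 library; for the same reason no library could be left out. Depth is unknown, so absence from a list means that no region was listed, not that BRD3 was absent.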

Other observations

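Along the genome, 33 members fell in 16 groups of at least 2 within 50 kb, and the 406 made 389 separate loci. Whether this is more or less grouping than in other sets was not tested. One group held 3 regions, at chr6:114550319-114614501 between the genes Hrh1 (a histamine receptor) and Atg7 (an autophagy enzyme), and no I-BET region lay within it. The group of the histone genes at chr13:21786257-21835172 did hold 1 I-BET region between its 2 members, so absence there was of single regions and not of the whole stretch.

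By chromosome, the share of regions without an I-BET call among those called in the other 3 lists ran from 12.3% on chromosome 19 (8 of 65) to 28.2% on chromosome X (11 of 39); these extremes were chosen after their values were seen. Genes for tRNAs had an end within 1 kb of 6 members (1.48%, 0.544% to 3.19%), against 0.927% of all untreated BRD3 regions. Long non-coding RNA genes had an end within 1 kb of 44 members (10.8%, 7.99% to 14.3%), against 13.7% of all.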
